A study of Caenorhabditis elegans with 2 samples.

Results

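Binding of the tagged protein D2030.7 was described at 8 genes for COMPASS, the complex family that methylates lysine 4 of histone H3 (H3K4): set-2, set-16, ash-2, wdr-5.1, rbbp-5, dpy-30, utx-1 and cfp-1. They are 8 of the 19973 protein-coding genes of the nuclear chromosomes in the Ensembl annotation. The genes were chosen by function after the promoter peaks and signals at some of them were known, so their peak counts, positions, signals and ranks are a description and carry no test. For each gene, peak summits were looked up in a window that begins 1000 bp before the 5′ end and reaches 200 bp past it, in the conservative pooled peak list and in the lists of each replicate.

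The data came from chromatin immunoprecipitation and sequencing (ChIP-seq) with an anti-GFP antibody on whole Caenorhabditis elegans. All worms were of strain RW12302, in which the allele st12302, a CRISPR insertion on chromosome I, joins TY1, EGFP and 3xFLAG tags to D2030.7. They were young adults of 62.5 hours, synchronised as starved L1 larvae after bleaching. The 2 samples are biological replicates of this single group. The authors' peak lists derive from alignments with a control, per the deposited descriptions. The control named in the labels was not itself used here, so no value is shown beside a background level measured the same way. Chromatin came from whole animals, so a peak cannot be assigned to a tissue, and all values come from 1 tagged strain.

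COMPASS complexes place H3K4 methylation at promoters of transcribed genes. In the worm, set-2 encodes the methyltransferase related to SET1 and set-16 the one related to MLL, while ash-2, wdr-5.1, rbbp-5 and dpy-30 encode the core subunits that such methyltransferases need. CFP-1 joins the SET1-type complex and binds CpG-containing DNA, and UTX-1 is an H3K27 demethylase found with MLL-type complexes. H3K4 methylation by these proteins is known for its part in worm germline maintenance, fertility and lifespan.

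Both methyltransferase genes and the core subunit gene rbbp-5 had a promoter summit in the conservative list, which made 3 of the 8 genes. Of all 19973 protein-coding genes, 1955 had one, which is 9.79%. The exact (Clopper-Pearson) 95% binomial interval of the share of 37.5% ran from 8.52 to 75.5%, and it covers counting over genes only. The 8 genes were not drawn at random, so this interval is no test against the share of all genes. The core subunit gene ash-2 also had a strong peak, but 489 bp downstream of its annotated 5′ end and so outside the window. The core subunit genes wdr-5.1 and dpy-30 and the partners cfp-1 and utx-1 had no summit in their windows in that list.

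Which genes had a summit depended on the list and on the 5′ end used. The other pooled list held summits at set-2, set-16, rbbp-5 and dpy-30, against 10.5% of all genes. Replicate 1 alone held a thresholded summit at the same 4 genes, against 9.08% of all genes. Replicate 2 alone held one at set-2, set-16 and ash-2, against 6.55% of all genes, and the ash-2 summit there was a weak peak apart from the strong one. When the 5′ end of any annotated transcript was allowed, ash-2 joined the conservative list's set-2, set-16 and rbbp-5, against 10.4% of all genes. Among the ranked candidates, which include peaks that did not pass the authors' threshold, 7 of the 8 genes had a summit, all but utx-1, against 53.5% of all genes. More than 50% of all promoters thus held a ranked candidate, so its presence alone says little about a gene. Only set-2 and set-16 had a promoter summit in both replicates' thresholded lists, as had 1174 of all genes, or 5.88%.

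**Figure D1:**
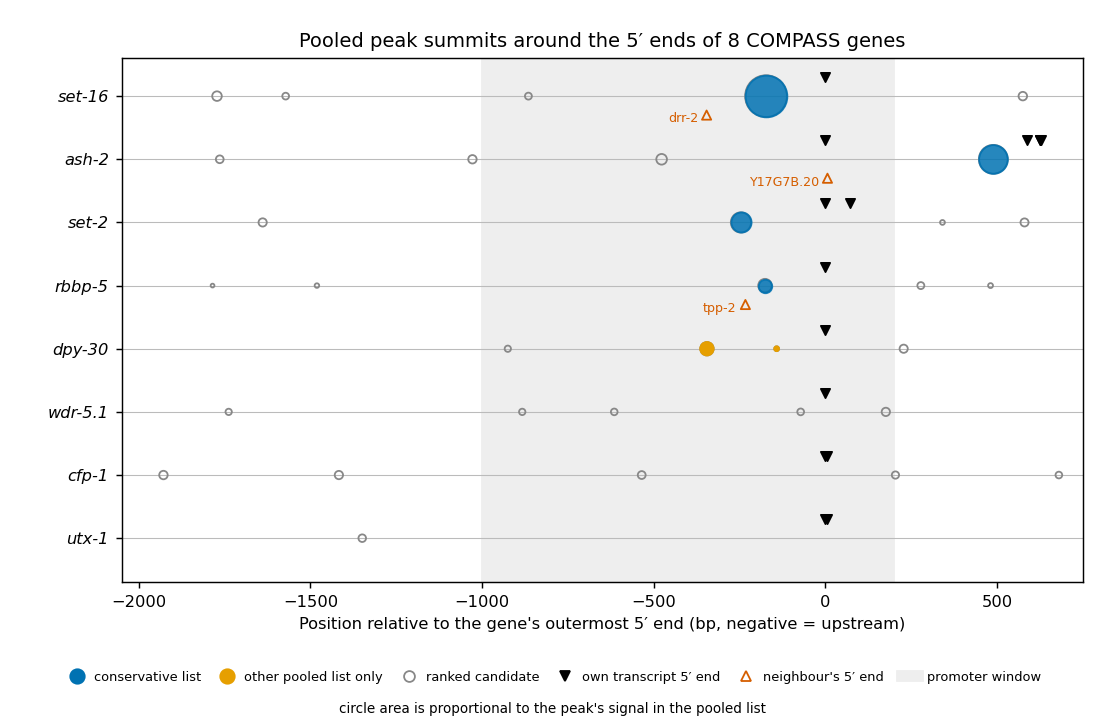
Pooled peak summits around the annotated 5′ ends of the 8 COMPASS genes, in bp from the outermost 5′ end (negative is upstream); circle area is proportional to the authors' signal, filled circles passed the authors' threshold, triangles mark 5′ ends and the shaded band is the promoter window. The summits of set-16, set-2 and rbbp-5 lie 173, 246 and 176 bp upstream. That of ash-2 lies 489 bp downstream and just before its protein-coding transcripts. Only open circles are shown at wdr-5.1, cfp-1 and utx-1, and that of utx-1 lies outside the shaded band.

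The DNA at the 5 summits is shown because it lets the peaks be compared base by base. Each sequence is the 100 bases around a pooled summit, 5′ to 3′ in the orientation of the gene, from the RefSeq genome sequence of build WBcel235 (ce11). Capitals mark any of the 20 words of 7 bases most over-represented at other promoter summits, on either strand, and any word of at least 9 bases that 2 of the 5 windows share. The set-2 window is chrIII:4930400-4930499 (minus strand), set-16 is chrIII:13643693-13643792 (plus), ash-2 is chrII:11980277-11980376 (plus), rbbp-5 is chrII:6097604-6097703 (plus) and dpy-30 is chrV:12191124-12191223 (plus). The dpy-30 summit comes from the other pooled list, since the conservative list had none there.
set-2: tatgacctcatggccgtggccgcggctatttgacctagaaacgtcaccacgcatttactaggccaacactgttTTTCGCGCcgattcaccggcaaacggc
set-16: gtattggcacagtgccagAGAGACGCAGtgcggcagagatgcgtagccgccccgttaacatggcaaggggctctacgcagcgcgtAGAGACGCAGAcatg
ash-2: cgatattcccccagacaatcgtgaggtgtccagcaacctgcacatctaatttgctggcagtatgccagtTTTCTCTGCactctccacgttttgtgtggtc
rbbp-5: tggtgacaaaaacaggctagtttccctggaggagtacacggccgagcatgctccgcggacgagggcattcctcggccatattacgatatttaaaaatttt
dpy-30: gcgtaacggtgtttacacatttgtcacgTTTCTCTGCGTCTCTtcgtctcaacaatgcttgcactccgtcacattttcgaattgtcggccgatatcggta

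The windows of set-16 and dpy-30 share a run of 11 bases, AGAGACGCAGA, which reads TCTGCGTCTCT in dpy-30. This run was present at 47 of 1503 other conservative-list promoter summits (3.13%), at 4 of 3006 windows of the same length centred 300 bp to either side (0.133%), and in 0.481% of the stretches from 250 to 151 bp upstream of all 19973 protein-coding genes. Its core GAGACGC is one of the 20 words and occurs at 2 places in the set-16 window. At the other summits GAGACGC was found in 6.32%, in the flanks in 0.699% and in the upstream stretches in 1.44%. The set-2 window holds the overlapping words CGCGAAA (10.2% of summits, 1.80% of flanks, 1.19% of upstream stretches) and GCGCGAA (7.98%, 0.632% and 0.661%), which read TTTCGCG and TTCGCGC on the strand shown.

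The ash-2 window shares 9 bases with dpy-30, GCAGAGAAA, found at 1.93% of other summits, in 0.233% of flanks and in 0.446% of upstream stretches. It overlaps the end of the run shared by set-16 and dpy-30, so dpy-30 carries both as 1 block of capitals. Neither ash-2 nor rbbp-5 holds any of the 20 words, and the rbbp-5 window has no capitals. Any of the 20 words was present at 58.0% of the other summits and in 11.8% of the flanks. The 20 words were picked for their excess at these same summits over these same flanks, so that excess was fixed by the choice. The run AGAGACGCAGA contains 1 of these words, GAGACGC, so its excess over the flanks was partly fixed in the same way. The most over-represented word, CGAGACC, was found at 12.6% of the other summits, in 1.16% of flanks and in 1.19% of upstream stretches, and in none of the 5 windows. All searches covered both strands, and a match is a description of the letters and not of a binding site. The G+C content was 55% at set-2, 61% at set-16, 50% at ash-2, 49% at rbbp-5 and 47% at dpy-30, against a median of 45% (quartiles 39 and 51%) at the other summits and 35% (30 and 41%) in their flanks.

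Of the methyltransferase genes, set-16 (WBGene00011729, chromosome III, 13643916 to 13656637, plus strand) had the strongest peak of the 8 genes. Its summit lay at III 13643743, in intergenic DNA 173 bp upstream of the only annotated 5′ end. The authors' signal there was 891.1 in the conservative list, 540.5 in replicate 1 and 345.8 in replicate 2, and signals are read only within a list. The peak ranked 17 of 2777, 17 of 2464 and 16 of 1811 in these lists, so it stood near the top of each. By strongest promoter summit per gene, set-16 was number 16 of all 19973 genes in the conservative list, 17 in replicate 1 and 15 in replicate 2. The summit lay 179 bp upstream in replicate 1 and 173 bp in replicate 2.

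The set-16 peak is also in the promoter window of drr-2 (WBGene00011730, chromosome III, 13642420 to 13643570, minus strand), which is transcribed away from set-16. The summit is 173 bp upstream of the 5′ end of each gene, so position does not assign it to either of them. Inside the set-16 gene, 19 ranked candidates were listed and none passed the threshold; the strongest had a signal of 67.2, 10047 bp downstream of the 5′ end. Apart from drr-2, which holds the same peak, unc-85 was the gene most like set-16 over the 3 lists among 141 candidates compared. Likeness was the sum of absolute differences in percentile of signal. For unc-85 the sum was 0.172 percentage points. Its signals were 885.1 in the conservative list, 557.0 in replicate 1 and 350.4 in replicate 2.

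At the SET1-type gene set-2 (WBGene00004782, chromosome III, 4922427 to 4930204, minus strand), the summit lay at III 4930450, in intergenic DNA 246 bp upstream of the outermost 5′ end and 319 bp upstream of another annotated one. Another annotated 5′ end lies 4104 bp inside the gene. The signal was 208.4 in the conservative list, 136.7 in replicate 1 and 74.5 in replicate 2. These ranked 617 of 2777, 507 of 2464 and 865 of 1811, so set-2 was well above the median of 129.8 in the conservative list and of 83.1 in replicate 1, and close to the median of 72.8 in replicate 2. The summit lay 263 bp upstream in replicate 1 and 245 bp in replicate 2.

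The set-2 peak was narrow in the pooled list (84 bp) and in replicate 1 (82 bp), and 280 bp wide in replicate 2, which is the median width of that list. The replicate 2 peak covered all of the pooled one, while the pooled peak covered 30% of the replicate 2 peak. By strongest promoter summit, set-2 ranked 570 of all genes in the conservative list. Its upstream neighbour C26E6.12 is on the same strand with a gap of 397 bp, and the set-2 summit is in no other protein-coding gene's window. Among 213 candidates the gene most like set-2 was glh-4, a germline helicase gene, with a sum of differences of 0.253 percentage points. The glh-4 signals were 208.5 in the conservative list, 136.7 in replicate 1 and 72.1 in the ranked list of replicate 2.

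Of the core subunit genes, ash-2 (WBGene00012458, chromosome II, 11979838 to 11989050, plus strand) had the strongest peak, with a signal of 423.1 in the conservative list, 246.6 in replicate 1 and 184.8 in replicate 2. It ranked 135 of 2777, 142 of 2464 and 120 of 1811. The peak thus stood above that of set-2 in all 3 lists, although the window around the outermost 5′ end missed it. The summit, at II 11980327, lay 489 bp downstream of that end, and 488 and 466 bp downstream in replicates 1 and 2.

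The outermost 5′ end belongs to a non-coding transcript, Y17G7B.2c, whose exon 1 spans 708 bp (11979838 to 11980545) and contains the summit. The 4 protein-coding transcripts of ash-2 begin further in, and the summit lay 99, 136, 137 and 138 bp upstream of their 5′ ends and before the coding start at 11980475. Measured from those transcripts, the ash-2 summit is upstream, but closer than the 173, 176 and 246 bp at set-16, rbbp-5 and set-2. Of all genes, 121 gained a conservative-list summit in this way through another transcript, out of 5475 genes with several annotated 5′ ends. The neighbour Y17G7B.20 on the minus strand starts 6 bp inside ash-2, so the same summit is 483 bp upstream of it and was counted in its window.

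Within the window around its outermost end, ash-2 had 1 candidate in the conservative ranked list, 477 bp upstream, with a signal of 58.1. Its −log10 global irreproducible discovery rate (IDR, which is low where 2 inputs rank a peak alike) was 0.47, below 2 (an IDR of 0.01). Replicate 2 listed a summit 432 bp upstream with a signal of 38.8, rank 1740 of 1811, past its own threshold, and the strongest window candidate of replicate 1 was 464 bp upstream, with a signal of 21.4 and rank 15525 of 41183. This weak upstream peak lies in an exon of Y17G7B.20.

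At rbbp-5 (WBGene00017683, chromosome II, 6097830 to 6099645, plus strand) the summit lay at II 6097654, in intergenic DNA 176 bp upstream. The signal was 93.2 in the conservative list, rank 2046 of 2777, and 63.7 in replicate 1, rank 1758 of 2464. In replicate 2 it was only a ranked candidate, with a signal of 37.4, rank 2931 of 34645 and a −log10 IDR of 0.975. This is the weakest of the conservative-list summits at these genes, below the list's median of 129.8. Its position differed little, at 181 bp upstream in replicate 1 and 178 bp in replicate 2.

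The rbbp-5 summit is closer to tpp-2 (WBGene00017686, chromosome II, 6092746 to 6097597, minus strand), a tripeptidyl peptidase gene that points away from rbbp-5, and lay 57 bp upstream of it. Given to the nearest 5′ end alone, the summit would count for tpp-2 and not for rbbp-5. Apart from tpp-2, which holds the same peak, the gene most like rbbp-5 among 151 candidates was eri-1, an exonuclease gene of small RNA pathways. Its sum of differences was 2.61 percentage points. The eri-1 signals were 94.0 in the conservative list and 56.3 and 35.1 in the ranked lists of replicates 1 and 2.

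dpy-30 (WBGene00001088, chromosome V, 12191519 to 12192385, plus strand), whose product also acts in worm dosage compensation, stood just outside the threshold. Its candidate at V 12191174, 345 bp upstream, had a signal of 92.1 and a −log10 IDR of 1.97 in the conservative ranked list, while rbbp-5, just inside, had 93.2 and 2.62. The other pooled list kept the dpy-30 summit, rank 2137 of 3082, with a −log10 IDR of 3.03, and a weaker one 142 bp upstream with a signal of 11.8. That IDR compares other inputs, with signals of 52.1 and 46.9 at dpy-30, and not the replicates' own peaks as in the conservative ranked list. The values 3.03 and 1.97 thus do not measure the same agreement. Replicate 1 had a thresholded summit 315 bp upstream, with a signal of 64.9 and rank 1725 of 2464. In its window replicate 2 had 1 candidate, 344 bp upstream, with a signal of 30.4, rank 4982 of 34645 and a −log10 IDR of 0.312. Past the window, 283 bp downstream, replicate 2 listed a stronger candidate with a signal of 37.1, rank 2976 and a −log10 IDR of 1.48, and the conservative ranked list had one 228 bp downstream with a signal of 34.6. The upstream dpy-30 peak thus passed the threshold in replicate 1 and not in replicate 2. The nearest conservative-list summit was 9978 bp away. The nearest other 5′ end, of the non-coding gene ZK863.11 (chromosome V, 12190700 to 12190785), lies in the window too, at -819 bp from the start of dpy-30.

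wdr-5.1 (WBGene00006474, chromosome III, 3705285 to 3706784, plus strand), which encodes a WD40-repeat subunit, had only weak candidates. In the conservative ranked list 4 lay in its window, 176 bp downstream with a signal of 35.6 and 72, 615 and 883 bp upstream with signals of 23.6, 22.8 and 20.9, against a median of 25.1 over all 67021 ranked peaks. Replicate 1 ranked the candidates next to the 5′ end in the other order, with signals of 32.2 for the one 72 bp upstream and 18.0 for the one 175 bp downstream. In replicate 2 the nearest counterpart of the downstream candidate lay past the window, 247 bp downstream, with a signal of 24.4, and the window held 1 candidate, 625 bp upstream, with a signal of 13.7, below that list's median of 19.5. The nearest conservative-list summit was 4113 bp from the 5′ end, nearest to the gene alkb-8. The strongest window candidates of the replicates thus lay at different positions at wdr-5.1.

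Of the partners, cfp-1 (WBGene00009924, chromosome IV, 14077435 to 14083568, plus strand) had 1 candidate in its window, 535 bp upstream, with a signal of 31.8 in the conservative ranked list. Neither replicate's ranked list nor the other pooled one held a summit in its window. Both pooled ranked lists had a candidate just past it, 204 bp downstream, with a signal of 27.2. Counted from another of the 7 annotated 5′ ends, 6 bp inside the gene, that candidate falls within the window. At none of these ends did cfp-1 have a conservative-list summit. Its upstream neighbour on the same strand, ccar-1, ends 692 bp away and had a conservative-list promoter summit of its own with a signal of 222.5, while the summit nearest to the start of cfp-1 lay 6259 bp from it. The utx-1 gene (WBGene00017046, chromosome X, 8557146 to 8563238, plus strand) had no candidate in its window in any of the 8 lists. Its nearest conservative-list summit was 51772 bp away. In the conservative ranked list its nearest upstream candidate was 1349 bp away, with a signal of 29.5. That list also held 2 candidates inside the gene, the stronger with a signal of 28.2, 3969 bp downstream of the 5′ end. On the X chromosome 58 of 2731 genes (2.12%) had a conservative-list promoter summit, the lowest share of the 6 chromosomes; on chromosome III, where set-2, set-16 and wdr-5.1 lie, the share was 16.4%. How far chromosome and gene role each go with the missing utx-1 peak was not tested.

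**Figure D2:**
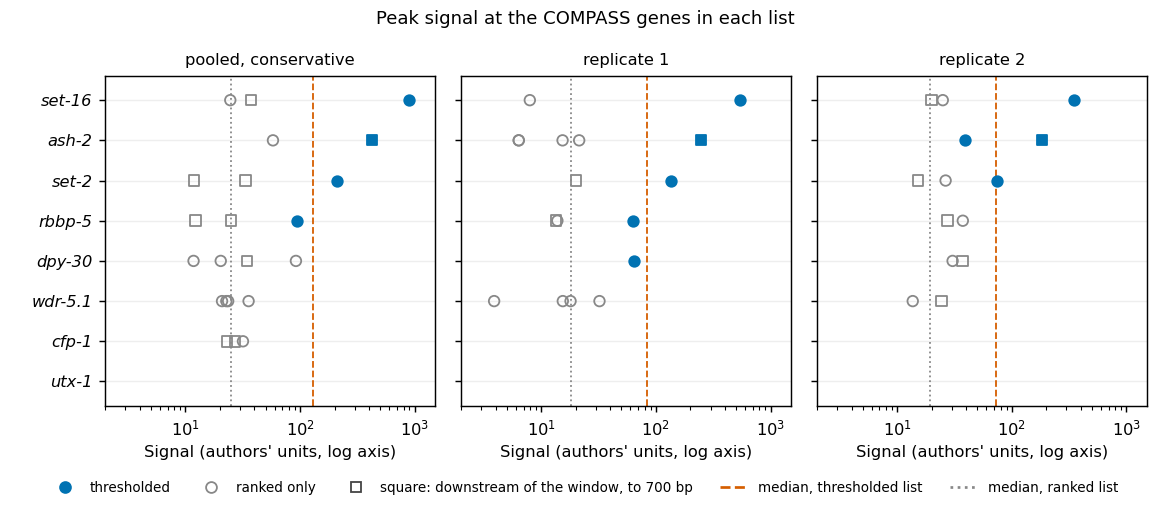
Authors' peak signal (log axis) at each COMPASS gene in the conservative pooled list and in replicates 1 and 2; filled points passed the authors' threshold, open points are ranked candidates, squares lie past the window, up to 700 bp downstream of the 5′ end, and lines mark each list's medians. set-16 and ash-2 stand right of the thresholded median in all 3 panels, rbbp-5 and dpy-30 stand left of it, and utx-1 has no point.

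The order of the peaks was compared through their rank in each replicate's ranked list, as a percentage from the top. set-16 was at 0.0517 ± 0.00444%, ash-2 at 0.378 ± 0.000478%, set-2 at 1.97 ± 0.923%, rbbp-5 at 6.51 ± 2.76% and dpy-30 at 9.42 ± 7.01% (mean ± SD, n = 2 replicates for each). The replicate values of set-16, ash-2, set-2 and rbbp-5 did not overlap from one gene to the next. Those of dpy-30 (4.46 and 14.4%) enclosed those of rbbp-5 (4.56 and 8.46%), so these neighbours in the order do not differ beyond their spread.

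**Figure D3:**
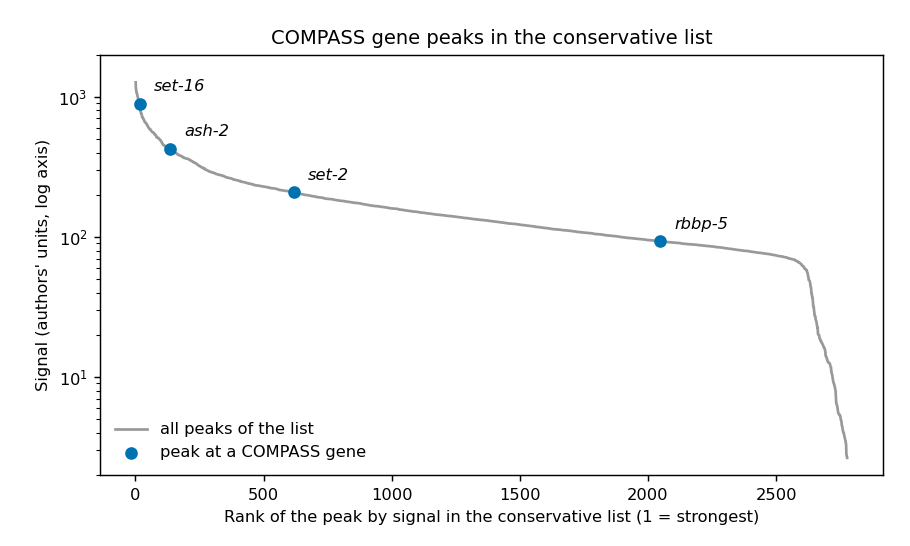
Authors' signal (log axis) against rank for all 2777 peaks of the conservative list, with the peaks at 4 COMPASS genes marked. set-16 (rank 17) and ash-2 (rank 135) lie on the steep top of the curve, set-2 (rank 617) at its shoulder and rbbp-5 (rank 2046) on the long flat part.

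The conservative ranked list gives 2 input signals beside each pooled peak, and at the 5 peaks the first equals the value in replicate 1's own list and the second that in replicate 2's. Over the 2868 peaks with a −log10 IDR of at least 2, the ratio of the first to the second input had a median of 1.33 (quartiles 1.06 and 1.66). The ratio was 1.33 at ash-2 and 1.56 at set-16, inside these quartiles. It was 1.71 at rbbp-5, 1.83 at set-2 and 2.13 at dpy-30, above the upper one. The 3 genes with weaker peaks thus had higher ratios than most of these 2868 peaks. Those peaks were selected by IDR, which is low where 2 inputs rank a peak alike, and were not matched for signal. The dpy-30 peak, with a −log10 IDR of 1.97, is not among them. At rbbp-5 and dpy-30 the peak passed the threshold in replicate 1 and not in replicate 2, so the comparison is a description only. The depth of the libraries is unknown, so the ratio is read against the other peaks only.

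**Figure D4:**
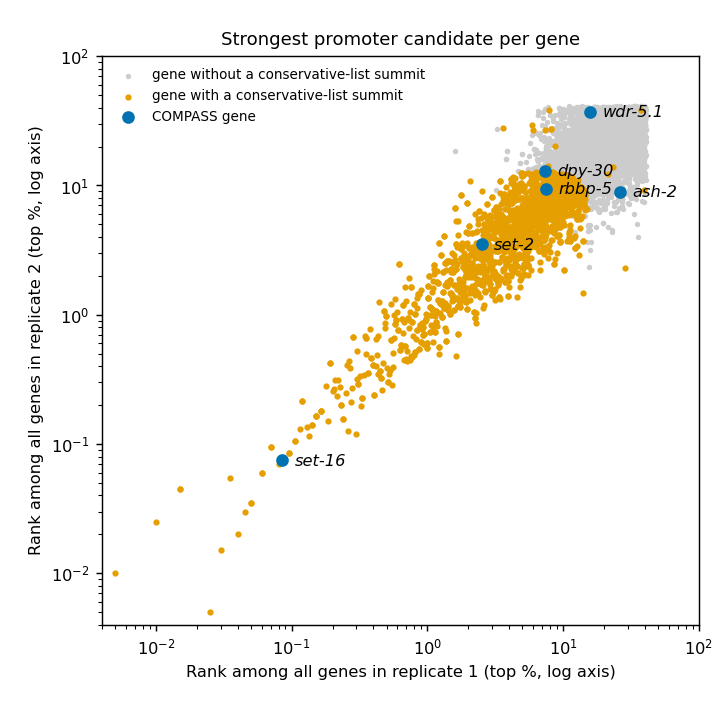
Rank of each gene's strongest promoter candidate among all 19973 genes in replicate 1 (x) and replicate 2 (y), as a percentage from the top on log axes, for the 5505 genes with a candidate in both replicates. set-16 is at the strong end in both, set-2 follows, rbbp-5 and dpy-30 lie close together, and ash-2 is placed by its weak upstream peak and wdr-5.1 by candidates at different positions.

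A further list held 14 genes of H3K4 and H3K27 methylation, also picked by name, so the interval given for them is no test. A conservative-list promoter summit was found at 2 of them, 14.3% (exact 95% interval 1.78 to 42.8%) against the 9.79% of all genes. One was wdr-5.3, a paralogue of wdr-5.1, with a summit 186 bp upstream and signals of 124.6 in the conservative list, 75.1 in replicate 1 and 53.4 in replicate 2. It passed the threshold in all 3 lists, which wdr-5.1 did in none, but the summit is also 62 bp upstream of mre-11, a DNA repair gene on the other strand whose 5′ end is the nearer one. The other was jmjd-3.3, related to utx-1 and likewise on the X chromosome, with a summit 430 bp upstream and signals of 136.6 in the conservative list, 78.1 in replicate 1 and 58.9 in the ranked list of replicate 2. That summit, at X 13435992, lies inside a tRNA gene (WBGene00014271, 13435966 to 13436039), whereas no small RNA gene lay within 200 bp of the conservative-list summits of set-2, set-16, ash-2 and rbbp-5.

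The other 12 genes of that list had no conservative-list promoter summit. The strongest ranked candidates among them were at the methyltransferase gene set-17 (signal 60.0, 263 bp upstream), the H3K4 demethylase gene rbr-2 (59.8, 551 bp), set-30 (58.0, 253 bp) and the H3K4 demethylase gene spr-5 (55.6, 75 bp). All were weaker than the candidates of dpy-30 and rbbp-5. The H3K4 demethylase genes lsd-1 and amx-1 and the partners hcf-1, swd-2.2 and pis-1 had weaker candidates, and wdr-5.2, jmjd-3.1 and jmjd-3.2 had none, which left 11 of the 14 with a candidate against the 53.5% of all genes.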

How the data were processed

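The files were peak lists of 2 biological replicates of 1 group; replication is per the labels. Each replicate and each of 2 pooled sets had a ranked and a thresholded list, 8 in all, on build ce11 (WBcel235), derived from alignments with a control, per the deposited file descriptions. The thresholded lists also used 1 file that is not described. Neither aligner nor peak caller is named: both were not given in the sources used here. Signal is the authors' deposited value per peak, used within a list only. The ranked lists also hold the authors' −log10 IDR. Every peak of the conservative thresholded list reached 2 there, but 91 ranked peaks that reached 2 were left out of it, including the strongest (signal 2629), so a cut at 2 alone does not give that list. Depth is unknown, since no counts were given. The conservative pooled list is the one whose ranked form takes both replicates' own peaks as inputs: 28940 of 57158 distinct peaks of input 1 matched replicate 1 exactly and none matched replicate 2, while 28399 of 51239 of input 2 matched replicate 2.

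Summits were joined to gene 5′ ends of the Ensembl release 115 annotation with Python 3.11.15 and pandas 2.3.3; intervals used scipy 1.17.1. Coordinates are 1-based. Words of 7 bases were counted 1 time per window and strand pair, at conservative-list promoter summits other than the members' own. The procedures were tested on simulated data. The members, gene lists and words were chosen with earlier results of these data known. Named genes were the 8 members and genes with a 5′ end within 1000 bp of their summits. Further H3K4 genes were named if they had a promoter summit or the strongest candidates. The gene most like each member with a conservative-list promoter summit was also named, apart from genes that share its peak.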

Additional observations from a re-analysis of the deposited data

How the results depend on the processing

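The count of 3 COMPASS genes stayed between 2 and 4 in 10 of 11 alternatives, in which 5.63 to 12.4% of all genes had a summit. It was 7 with every ranked candidate, against 53.5% of all genes. The genes counted changed between alternatives, and only set-2 and set-16 were in every count. The count was 4 with replicate 1's list alone, against 9.08% of all genes. It was 3 with replicate 2's list alone, against 6.55%, with ash-2 in place of rbbp-5. Giving each summit to the nearest 5′ end, or keeping the stronger 50% of the list by signal, left set-2 and set-16 without rbbp-5. The nearest 5′ end kept set-16 only on a tie, as its summit lay 173 bp upstream of both set-16 and drr-2. That setting thus does not assign the peak to set-16 rather than to drr-2. The count of 2 further genes was 1 with the nearest 5′ end (without wdr-5.3) and 1 in the stronger 50% (again jmjd-3.3). It was 11 with every ranked candidate, and 1 to 2 with single replicates. With the nearest 5′ end, 1398 of all 19973 genes had a summit. In the stronger 50% of the list, 1124 of all 19973 genes had one, or 5.63%. The shares of all genes with every ranked candidate and with single replicates are those given above for the COMPASS genes. The count of 2 COMPASS genes whose promoter summit had an overlapping peak in both replicates was 1 with a reciprocal overlap of 50%. That gene was set-16, since the set-2 peak is wide in replicate 2. The strong ash-2 peak, outside the window and so not counted, also met this overlap in both replicates. The share of all genes is not given for these overlaps. Summit positions ran from -263 to -245 bp at set-2 and from -179 to -173 bp at set-16, with -181 bp at rbbp-5 in replicate 1 and no thresholded summit in replicate 2. In windows of 200 bp the word CGAGACC was at 15.97% and GAGACGC at 9.05% of other summits. No paired analysis was possible because the 2 samples form 1 group. Replicate 2 lists fewer peaks, and with no read counts it cannot be said what depth contributed to its missing rbbp-5 and dpy-30 summits.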
